A study of Mus musculus with 9 samples.

Results

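MHC class I molecules carry short peptides from inside a cell to its surface, where CD8 T cells read them. The proteasome cuts proteins into peptides, the TAP transporter (Tap1 with Tap2) pumps the peptides into the endoplasmic reticulum, and tapasin (Tapbp) holds an empty class I molecule at the transporter until a peptide binds. The class I molecule itself is a heavy chain (H2-K1 or H2-D1 in these mice) paired with the light chain beta-2 microglobulin (B2m). Interferon exchanges the catalytic proteasome subunits for Psmb8, Psmb9 and Psmb10, which form the immunoproteasome, and the transactivator Nlrc5 drives transcription of class I genes together with RFX, CREB/ATF and NF-Y factors on their promoters.

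These 10 genes were chosen by name from the 55450 genes of the count table, and each matched 1 Ensembl identifier. All 10 passed edgeR's filter on low counts, which left 19357 genes for the tests. The values came from RNA-sequencing of EYFP+ live mammary cells sorted by FACS from adult nulliparous female mice of 3 genotypes. Control mice were lsl-EYFP;K8CreERT2, the second genotype was LATS1/2f/f;lsl-EYFP;K8CreERT2 (labelled LATS1/2-KO), and the third carried Sox9f/f beside all alleles of the second (labelled LATS1/2-Sox9-KO). All mice, controls included, carried the Cre driver and the reporter and received 2 mg of tamoxifen by injection on 5 consecutive days, with the sort 7 days after the last dose. Cre was driven by the promoter of keratin 8, a luminal keratin, so deletion and EYFP were restricted to cells with K8 activity and their progeny, and no leukocyte marker is named for the sort. Each genotype gave 3 libraries, with total counts from 44167762 to 47003587 in control, from 50508666 to 61745346 in LATS1/2-KO and from 55503365 to 61967651 in LATS1/2-Sox9-KO. The labels do not say that the libraries came from separate mice, so the p-values measure the spread between libraries.

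Levels are given as CPM, counts scaled to 1000000 per library after TMM normalization of the library sizes. A fold change is the log2 fold change of edgeR's quasi-likelihood fit with its standard error (SE), and its p-value carries a Benjamini-Hochberg adjustment for 19357 tests. A gene was said to rise or fall at an adjusted p of at most 0.05, and was counted as called where the log2 fold change was also above 1 or below -1.

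The targeted genes were read first. Lats1 was at 105, 110.1 and 110.4 CPM in the control libraries, at 38.8, 35.7 and 43.4 CPM in those labelled LATS1/2-KO and at 38.2, 34.3 and 31.7 CPM in those labelled LATS1/2-Sox9-KO. Lats2 did not follow the label, with 19.3, 16.1 and 22.7 CPM in control, 23.3, 26.6 and 32.0 CPM in LATS1/2-KO and 36.4, 29.4 and 23.03 CPM in LATS1/2-Sox9-KO, and counts over the whole gene do not show whether the floxed exons were lost. Sox9 was at 433, 371 and 400.1 CPM in control and already lower in LATS1/2-KO, at 134, 177 and 231 CPM. Its level in LATS1/2-Sox9-KO was 164, 126 and 120.0 CPM, and the difference from LATS1/2-KO missed the threshold (log2 fold change -0.40, SE 0.19, adjusted p = 0.250, edgeR). For these reasons the groups are named below by their labels.

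The class I genes did not move as 1 block. Against control, the libraries labelled LATS1/2-KO had lower RNA of 5 of the 10 genes, the heavy chains H2-K1 and H2-D1, the transporter subunit Tap2, the immunoproteasome subunit Psmb9 and the transactivator Nlrc5, while B2m, Tap1, Tapbp, Psmb8 and Psmb10 did not pass the test. Of all genes tested, 27.1% fell and 28.7% rose in this comparison. Tap2, Psmb9 and Nlrc5 were also called lower, against a background of 17.5% of all genes, though Psmb9 was not called once offsets for the GC content of genes were added. No member rose in edgeR's fit of all 3 groups or by DESeq2, and 0 had an unadjusted p below 0.05 in that direction in edgeR's fit, although B2m rose under 2 other settings of edgeR given with its values. Against LATS1/2-KO, the libraries labelled LATS1/2-Sox9-KO had a higher mean of all 10 genes, of which 5 rose (H2-K1, B2m, Tap2, Psmb8 and Nlrc5), against 3.13% of all genes that rose and 3.33% that fell. B2m and Nlrc5 were called higher, against 1.55% of all genes. The plot of log2 fold changes sets the 3 comparisons side by side.

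**Figure D1:**
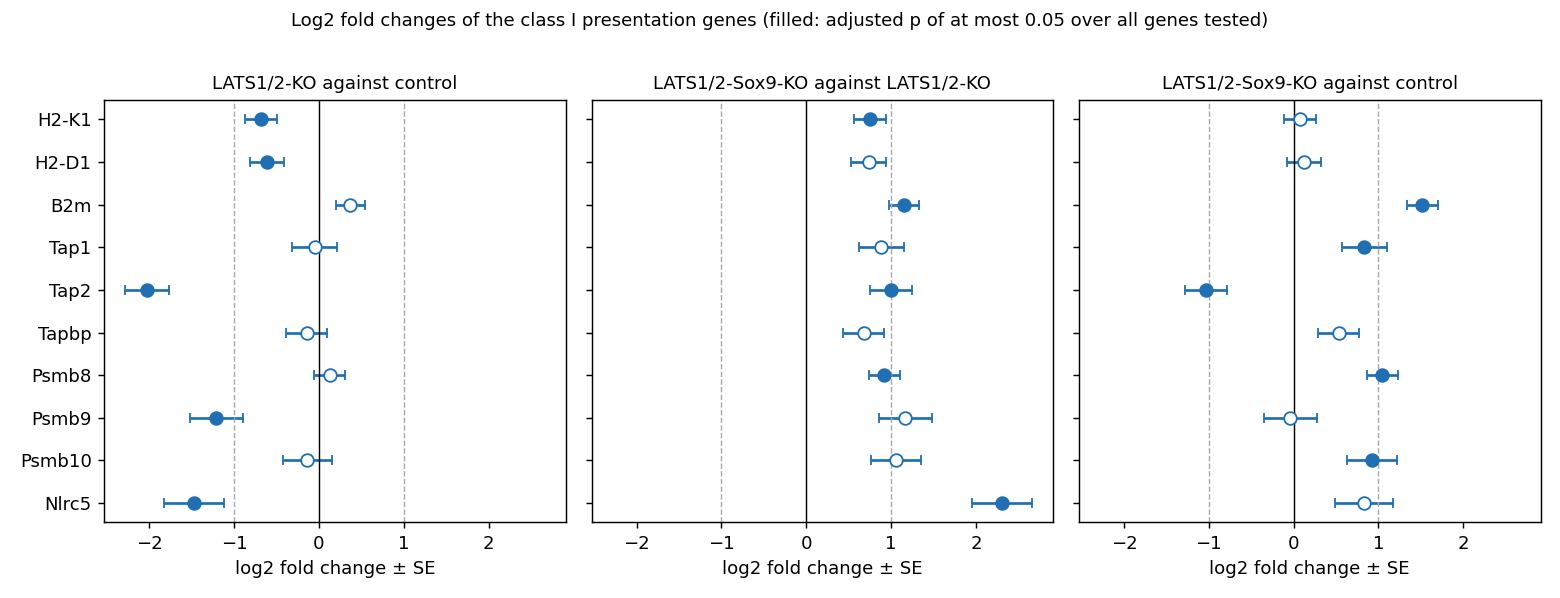
Log2 fold change (horizontal axis) with its SE for each of the 10 genes in the 3 comparisons, one panel per comparison, from edgeR's quasi-likelihood fit. Filled points have an adjusted p of at most 0.05, and dashed lines mark log2 fold changes of -1 and 1. Tap2 lies farthest left in the first panel (-2.03) and Nlrc5 farthest right in the middle panel (2.31), where all 10 points lie above 0.

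The heavy chains H2-K1 (chr17:33996017-34000347, minus strand) and H2-D1 (chr17:35262730-35267499, plus strand) lie in the MHC and bind the peptide. All gene positions were taken from GENCODE M21 (build GRCm38). H2-K1 was at 2219, 1879 and 2099 CPM in control, at 1269, 1271 and 1333 CPM in LATS1/2-KO and at 2938, 1955 and 1639 CPM in LATS1/2-Sox9-KO. H2-D1 was at 1734, 1542 and 1744 CPM in control, at 986, 1039 and 1259 CPM in LATS1/2-KO and at 2492, 1601 and 1368 CPM in LATS1/2-Sox9-KO. For both genes the 3 LATS1/2-KO libraries were below every library of the other groups, and the LATS1/2-Sox9-KO libraries reached both above and below the control range. H2-K1 fell in LATS1/2-KO by 0.68 on the log2 scale (SE 0.19, adjusted p = 0.0113, edgeR), and H2-D1 fell by 0.61 (SE 0.20, adjusted p = 0.0265). Both calls ended with offsets for GC content, an alternative chosen after the data were seen, at -0.35 for H2-K1 (adjusted p = 0.113) and -0.21 for H2-D1 (adjusted p = 0.341). Without control replicate 1, control replicate 3, LATS1/2-KO replicate 1 or LATS1/2-KO replicate 2 the adjusted p of H2-D1 was 0.0671, 0.0549, 0.0794 or 0.0683 in edgeR's fit. H2-K1 rose in LATS1/2-Sox9-KO over LATS1/2-KO by 0.75 (SE 0.19, adjusted p = 0.0443), while H2-D1 missed the threshold (0.73, SE 0.20, adjusted p = 0.0624). That rise of H2-K1 held among single omissions only without LATS1/2-Sox9-KO replicate 3, and otherwise had values from 0.50 to 0.85 and adjusted p-values from 0.0515 to 0.113. It also missed the threshold with the replicate number as a block (0.72, adjusted p = 0.0568), with library totals alone (0.64, adjusted p = 0.0532) and in a fit of only these groups (0.75, adjusted p = 0.0708). Heavy chain genes are a family of near-identical copies and only uniquely aligned pairs were counted, so reads of 1 copy may have been left out or placed on another and the values of both genes are uncertain to that extent.

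The promoters of both heavy chains and of B2m are shown because these genes share the elements that Nlrc5's partners, interferon regulatory factors and NF-kappaB are known to use, while their levels parted. The sequences are the 250 bases before the RefSeq start on GRCm38.p6, read 5′ to 3′ on the gene's strand, at chr17:34000348-34000597 for H2-K1 (the outer of its starts), chr17:35262844-35263093 for H2-D1 and chr2:122147437-122147686 for B2m. Capitals mark matches, on either strand, to AANNGAAA (the core read by interferon regulatory factors), TGACG (the core of the CRE that CREB and ATF1 read), CCAAT (read by NF-Y) and GGGNNNNNCC (a loose kappaB pattern).
H2-K1: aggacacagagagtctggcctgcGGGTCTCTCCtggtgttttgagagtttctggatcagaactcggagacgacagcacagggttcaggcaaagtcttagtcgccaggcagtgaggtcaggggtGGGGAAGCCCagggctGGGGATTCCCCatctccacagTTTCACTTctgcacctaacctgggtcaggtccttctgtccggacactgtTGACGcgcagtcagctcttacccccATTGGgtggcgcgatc
H2-D1: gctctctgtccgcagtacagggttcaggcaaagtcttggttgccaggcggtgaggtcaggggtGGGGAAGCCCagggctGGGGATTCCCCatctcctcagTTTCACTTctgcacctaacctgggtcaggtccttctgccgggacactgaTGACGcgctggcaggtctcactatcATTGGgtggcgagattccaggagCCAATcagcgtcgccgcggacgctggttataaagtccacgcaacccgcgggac
B2m: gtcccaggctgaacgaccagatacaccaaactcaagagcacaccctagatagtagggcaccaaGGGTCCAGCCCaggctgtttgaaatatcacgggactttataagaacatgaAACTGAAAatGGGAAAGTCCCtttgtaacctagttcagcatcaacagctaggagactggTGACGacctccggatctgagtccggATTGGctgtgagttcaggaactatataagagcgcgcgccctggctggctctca

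In all 3 windows TGACG was followed by ATTGG, the reverse complement of CCAAT, at the same distance of 25 bases from start to start. The interferon regulatory factor core lay 49 bases before TGACG in H2-K1 and H2-D1 and 59 bases before it in B2m. Set 60 bases apart, the H2-K1 and H2-D1 windows were identical at 166 of 190 bases (87.4%). Of 32851 windows of 250 bases in the RefSeq promoter table, 21.3% held AANNGAAA, 17.8% TGACG, 33.8% CCAAT and 45.8% GGGNNNNNCC at least once on either strand. Runs of capitals longer than a pattern join overlapping matches of that pattern, and the patterns did not overlap each other in the windows shown. Neither GGAATG, the pattern of the TEAD factors through which YAP and TAZ act, nor AACAAT, a SOX pattern, was in any of the windows of the 8 members in the table, and 12.6% and 9.42% of all windows held them. A match is a run of letters and does not show that a factor was bound. The table matched 8 of the 10 members, all but Tap2 and Nlrc5.

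B2m (chr2:122147686-122153083, plus strand), the light chain that every class I heavy chain needs to reach the surface, moved apart from the heavy chains. It was at 1007, 853 and 952 CPM in control, at 1162, 1260.0 and 1212 CPM in LATS1/2-KO and at 3474, 2570.3 and 2013 CPM in LATS1/2-Sox9-KO. The 3 groups did not overlap, and the LATS1/2-Sox9-KO libraries were the highest. Between LATS1/2-KO and control B2m missed the threshold (log2 fold change 0.37, SE 0.17, adjusted p = 0.0973, edgeR), but it passed with library totals in place of TMM factors (0.44, adjusted p = 0.0390) and in a fit of only these groups (0.39, adjusted p = 0.0189). With GC content offsets its log2 fold change was -0.044 (adjusted p = 0.864). It rose in LATS1/2-Sox9-KO by a log2 fold change of 1.15 (SE 0.18, adjusted p = 0.00849) over LATS1/2-KO, and by 1.52 (SE 0.18, adjusted p = 5.80e-05) over control. Without LATS1/2-Sox9-KO replicate 1 the first of these values was 0.95 (adjusted p = 0.00964), which was past the adjusted p but below the fold threshold.

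The 2 subunits of the TAP transporter, which work as 1 heterodimer, had different values in LATS1/2-KO. Tap1 (chr17:34187553-34197225, plus strand) was at 92.3, 84.4 and 91.0 CPM in control, at 67.2, 82.0 and 109 CPM in LATS1/2-KO and at 230.0, 145 and 103 CPM in LATS1/2-Sox9-KO. The LATS1/2-KO libraries lay on both sides of the control range, with a log2 fold change of -0.05 (SE 0.27, adjusted p = 0.889, edgeR). Against LATS1/2-KO the value in LATS1/2-Sox9-KO was 0.88 (SE 0.27, adjusted p = 0.0803). Tap2 (chr17:34203527-34216321, plus strand) was at 346, 317 and 405 CPM in control, at 78.3, 78.9 and 105 CPM in LATS1/2-KO and at 250.4, 155 and 118 CPM in LATS1/2-Sox9-KO. Every LATS1/2-KO library was below every LATS1/2-Sox9-KO library, and these in turn were below every control library. Tap2 fell in LATS1/2-KO by 2.03 on the log2 scale (SE 0.26, adjusted p = 0.000109, edgeR), to 0.245 of its control level, the largest fall among the 10 genes. It rose in LATS1/2-Sox9-KO over LATS1/2-KO by 1.00 (SE 0.25, adjusted p = 0.0438), short of the called threshold in the next decimals, and remained 1.03 lower than in control (log2 fold change -1.03, SE 0.25, adjusted p = 0.00510). The rise over LATS1/2-KO lost its adjusted p under the omission of any library of the 2 groups but LATS1/2-Sox9-KO replicate 3, with values from 0.67 without LATS1/2-Sox9-KO replicate 1 to 1.15 without LATS1/2-KO replicate 3 and adjusted p-values from 0.0767 to 0.105. It was lost too with the replicate number as a block (0.98, adjusted p = 0.0720) and in a fit of only these groups (1.00, adjusted p = 0.0729).

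Tap1 and Psmb9 stand back to back, and the 225 bases between their RefSeq starts are shown because 1 stretch of promoter faces a gene that fell in LATS1/2-KO and a gene that did not pass the test. The stretch is chr17:34187331-34187555 on GRCm38.p6, on the strand of Tap1, so Psmb9 starts at its left end and Tap1 at its right end.
Tap1-Psmb9: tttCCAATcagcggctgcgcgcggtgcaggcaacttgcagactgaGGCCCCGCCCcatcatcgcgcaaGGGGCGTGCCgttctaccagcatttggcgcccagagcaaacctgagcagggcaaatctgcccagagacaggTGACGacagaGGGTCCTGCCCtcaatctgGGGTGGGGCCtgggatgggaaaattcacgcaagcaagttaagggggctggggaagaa
Capitals mark the same 4 patterns, of which AANNGAAA had no match here. In GENCODE M21 Psmb9 extends across this stretch to base 34187764, while Tap1 begins at base 34187553, near its right end. Both genes share 212 exon bases, 3.87% of those of Tap1 and 5.79% of those of Psmb9. The values of both genes are uncertain for reads from the shared bases.

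Tapbp (chr17:33915899-33929292, plus strand), which encodes tapasin, was the steadiest member in control. It was at 310.0, 311 and 310.2 CPM in control, at 232, 271 and 339 CPM in LATS1/2-KO and at 646, 380.3 and 317 CPM in LATS1/2-Sox9-KO. The LATS1/2-KO libraries lay on both sides of control, and the highest of them was above the lowest of LATS1/2-Sox9-KO. No comparison of Tapbp passed the test in the fit of all 3 groups, with log2 fold changes of -0.15 (adjusted p = 0.627), 0.68 (adjusted p = 0.128) and 0.53 (adjusted p = 0.0825, edgeR) in the order of the 3 panels of the plot of fold changes.

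**Figure D2:**
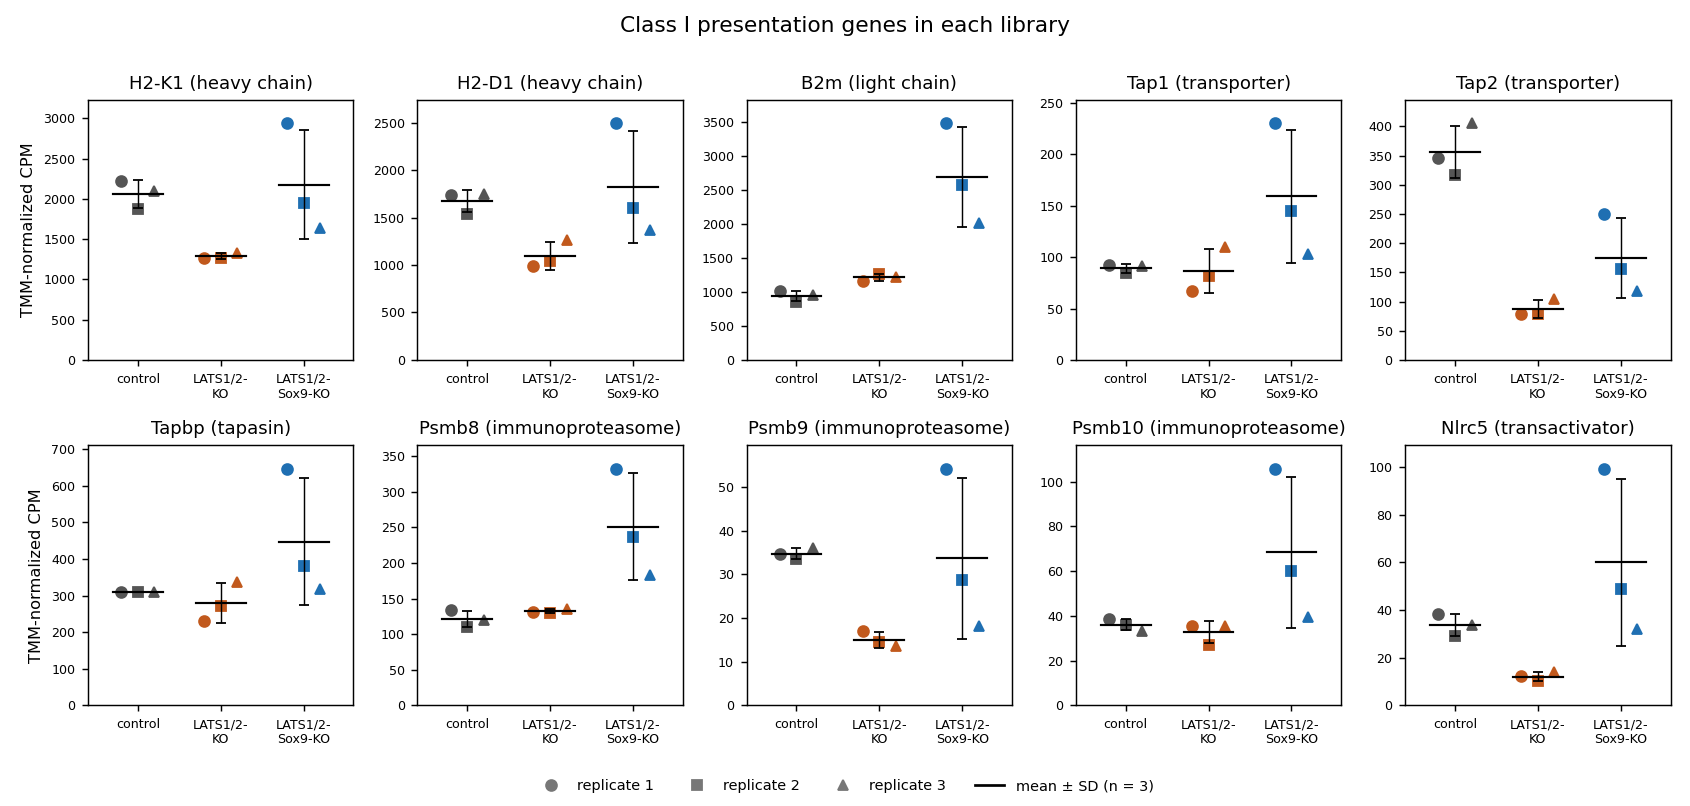
Level of each of the 10 genes in TMM-normalized CPM (vertical axes from 0) in the 9 libraries by group, with the replicate number as the symbol and the mean ± SD (n = 3) in black. The LATS1/2-Sox9-KO libraries ran from replicate 1 (highest) to replicate 3 (lowest) in all 10 panels, and Tap2, Psmb9, Nlrc5, H2-K1 and H2-D1 were lowest in the libraries labelled LATS1/2-KO.

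The immunoproteasome subunits also split. Psmb8 (chr17:34197721-34201454, plus strand), which takes the place of Psmb5, was at 133, 111 and 120.1 CPM in control, at 131, 130.1 and 136 CPM in LATS1/2-KO and at 332, 237 and 183 CPM in LATS1/2-Sox9-KO. Psmb9 (chr17:34181987-34187764, minus strand), which takes the place of Psmb6, was at 34.7, 33.4 and 35.9 CPM in control, at 17.0, 14.5 and 13.6 CPM in LATS1/2-KO and at 54.1, 28.8 and 18.3 CPM in LATS1/2-Sox9-KO. Psmb10 (chr8:105935735-105938444, minus strand), which takes the place of Psmb7, was at 38.5, 36.0 and 33.5 CPM in control, at 35.6, 27.1 and 35.5 CPM in LATS1/2-KO and at 106, 59.9 and 39.5 CPM in LATS1/2-Sox9-KO. The LATS1/2-KO libraries were below all others for Psmb9 and overlapped control for Psmb8 and Psmb10. Psmb9 fell in LATS1/2-KO by 1.21 on the log2 scale (SE 0.32, adjusted p = 0.00865, edgeR), while Psmb8 had a log2 fold change of 0.13 (SE 0.18, adjusted p = 0.592) and Psmb10 one of -0.14 (SE 0.29, adjusted p = 0.715). With GC content offsets Psmb9 was at -0.89 (adjusted p = 0.0309) and was no longer called. Over LATS1/2-KO, Psmb8 rose in LATS1/2-Sox9-KO by 0.92 (SE 0.19, adjusted p = 0.0218), whereas Psmb9 at 1.17 (SE 0.32, adjusted p = 0.0579) and Psmb10 at 1.06 (SE 0.29, adjusted p = 0.0624) missed the threshold. The adjusted p of Psmb8 in that comparison was 0.0503 without LATS1/2-KO replicate 2, 0.0735 without LATS1/2-KO replicate 3 and 0.0619 without LATS1/2-Sox9-KO replicate 2.

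Nlrc5 (chr8:94434356-94527272, plus strand), the transactivator, had the lowest level per length and the widest range of the 10 genes. It was at 38.2, 29.2 and 33.6 CPM in control, at 12.2, 10.1 and 14.1 CPM in LATS1/2-KO and at 99.2, 48.7 and 32.0 CPM in LATS1/2-Sox9-KO. The LATS1/2-KO libraries were below all others, and the lowest LATS1/2-Sox9-KO library lay inside the control range. Nlrc5 fell in LATS1/2-KO by 1.47 (SE 0.35, adjusted p = 0.00498, edgeR) and rose in LATS1/2-Sox9-KO over LATS1/2-KO by 2.31 (SE 0.36, adjusted p = 0.00876). The latter value was 1.76 (adjusted p = 0.00616) without LATS1/2-Sox9-KO replicate 1.

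Against control, the libraries labelled LATS1/2-Sox9-KO had higher RNA of B2m, Psmb8, Tap1 and Psmb10 and lower RNA of Tap2, while H2-K1, H2-D1, Tapbp, Psmb9 and Nlrc5 did not pass the test. Of all genes tested, 29.3% rose and 28.7% fell in this comparison. B2m and Psmb8 were called higher, against 17.8% of all genes, and Tap2 was called lower, against 19.6%. The calls of Psmb8 and Tap2 lay near the fold threshold, and both genes kept their adjusted p below 0.05 under each of 16 alternatives, glmTreat against a fold change of 2 not among them. Psmb8 was below the threshold with library totals alone (0.998), without control replicate 2 (0.98) and without LATS1/2-Sox9-KO replicate 1 (0.81). Tap2 was short of it with no filter (-0.98), with GC content offsets (-0.66) and without control replicate 3 (-0.92), LATS1/2-Sox9-KO replicate 2 (-0.93) or LATS1/2-Sox9-KO replicate 3 (-0.80). The log2 fold changes were 1.05 for Psmb8 (SE 0.19, adjusted p = 0.000853), 0.83 for Tap1 (SE 0.27, adjusted p = 0.0217) and 0.93 for Psmb10 (SE 0.29, adjusted p = 0.0210, edgeR). Nlrc5 had a log2 fold change of 0.83 (SE 0.34, adjusted p = 0.0599), Psmb9 one of -0.04 (SE 0.31), H2-K1 one of 0.08 (SE 0.19) and H2-D1 one of 0.12 (SE 0.20). Comparisons that share the control or the LATS1/2-KO libraries are not independent of each other, so these values are only set side by side. Without LATS1/2-Sox9-KO replicate 1, Tap1 (0.49, adjusted p = 0.0737) and Psmb10 (0.48, adjusted p = 0.0584) no longer passed, Psmb9 did (-0.54, adjusted p = 0.0430), and Nlrc5 was at 0.28. Nlrc5 passed by DESeq2 (0.81, adjusted p = 0.0370), with no filter (0.88, adjusted p = 0.0189), with GC content offsets (1.00, adjusted p = 0.0255) and without LATS1/2-Sox9-KO replicate 3 (1.15, adjusted p = 0.00736). Tapbp passed with no filter (0.57, adjusted p = 0.0347), with GC content offsets (0.91, adjusted p = 0.00347) and without LATS1/2-Sox9-KO replicate 3 (0.74, adjusted p = 0.0220), and H2-D1 passed with GC content offsets (0.45, adjusted p = 0.0461). Tap1 also missed the threshold without control replicate 2 (adjusted p = 0.0663), as did Psmb10 without control replicate 2 (adjusted p = 0.0559) or control replicate 3 (adjusted p = 0.0566).

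Replicate 1 of LATS1/2-Sox9-KO stood apart. It was the highest library of its group for 10 of the 10 genes and the highest of all 9 libraries for 9 of them, all but Tap2, and replicate 3 was the lowest of its group for all 10. The ratio of replicate 1 to replicate 3 ran from 1.73 for B2m to 3.10 for Nlrc5, and the median ratio of the highest to the lowest library of this group over all genes tested was 1.32. In LATS1/2-KO the ratio of the highest to the lowest library for the same genes ran from 1.05 for Psmb8 to 1.63 for Tap1, and the median over all genes was 1.47. All 3 LATS1/2-Sox9-KO libraries were above all 3 LATS1/2-KO libraries for 8 of the 10 genes, where 14.6% of all genes showed that order. Tap1 and Tapbp were the exceptions. Without replicate 1, 3 genes (B2m, Psmb8 and Nlrc5) rose over LATS1/2-KO and 1 (Nlrc5) was called, where 1.85% of all genes rose and 1.11% were called higher. Without replicate 3, which held the lowest values, 9 rose and 7 were called, where the shares of all genes were 1.97% and 1.32%.

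Levels were also set per length (RPKM, CPM per kilobase of exon), which allows genes to be ordered. The length joins the exons of every annotated transcript of a gene, so the order and the size of a ratio between genes depend on the annotation. For the heavy chains the uncertainty of read placement applies here too. In control B2m was highest at a mean of 1090.3 RPKM, followed by H2-K1 at 703 and H2-D1 at 649, whose libraries overlapped. Tap2 came next at 94.2 and Tapbp at 85.6, which overlapped too, then Psmb8 at 35.9, Psmb10 at 21.1, Tap1 at 16.3, Psmb9 at 9.47 and Nlrc5 at 3.97. Tap2 went from the fourth place in control to the sixth in both other groups, behind Tapbp and Psmb8, and the other 7 genes kept their places. Its means were 23.1 RPKM in LATS1/2-KO and 46.2 RPKM in LATS1/2-Sox9-KO.

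Ratios between partners within a library varied little inside a group for the class I chains and for the transporter. The RPKM of H2-K1 relative to B2m was 0.645, 0.645 and 0.645 in control, 0.320, 0.295 and 0.322 in LATS1/2-KO and 0.248, 0.223 and 0.238 in LATS1/2-Sox9-KO. The 3 groups did not overlap, and the standard deviation within each was at most 5.34% of the mean. H2-D1 relative to B2m was 0.596 ± 0.0194 in control, 0.302 ± 0.0391 in LATS1/2-KO and 0.225 ± 0.0159 in LATS1/2-Sox9-KO (SD, n = 3). H2-K1 relative to H2-D1 stayed between 0.929 and 1.13 over the 9 libraries. Tap2 relative to Tap1 was 5.43, 5.44 and 6.45 in control, 1.69, 1.39 and 1.39 in LATS1/2-KO and 1.58, 1.56 and 1.66 in LATS1/2-Sox9-KO. Both mutant groups lay below control and overlapped each other, although Tap1 and Tap2 each varied over more than the control range in LATS1/2-Sox9-KO. With 3 libraries against 3, the smallest two-sided p of an exact permutation test is 0.1, and the ratios are given as a description.

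**Figure D3:**
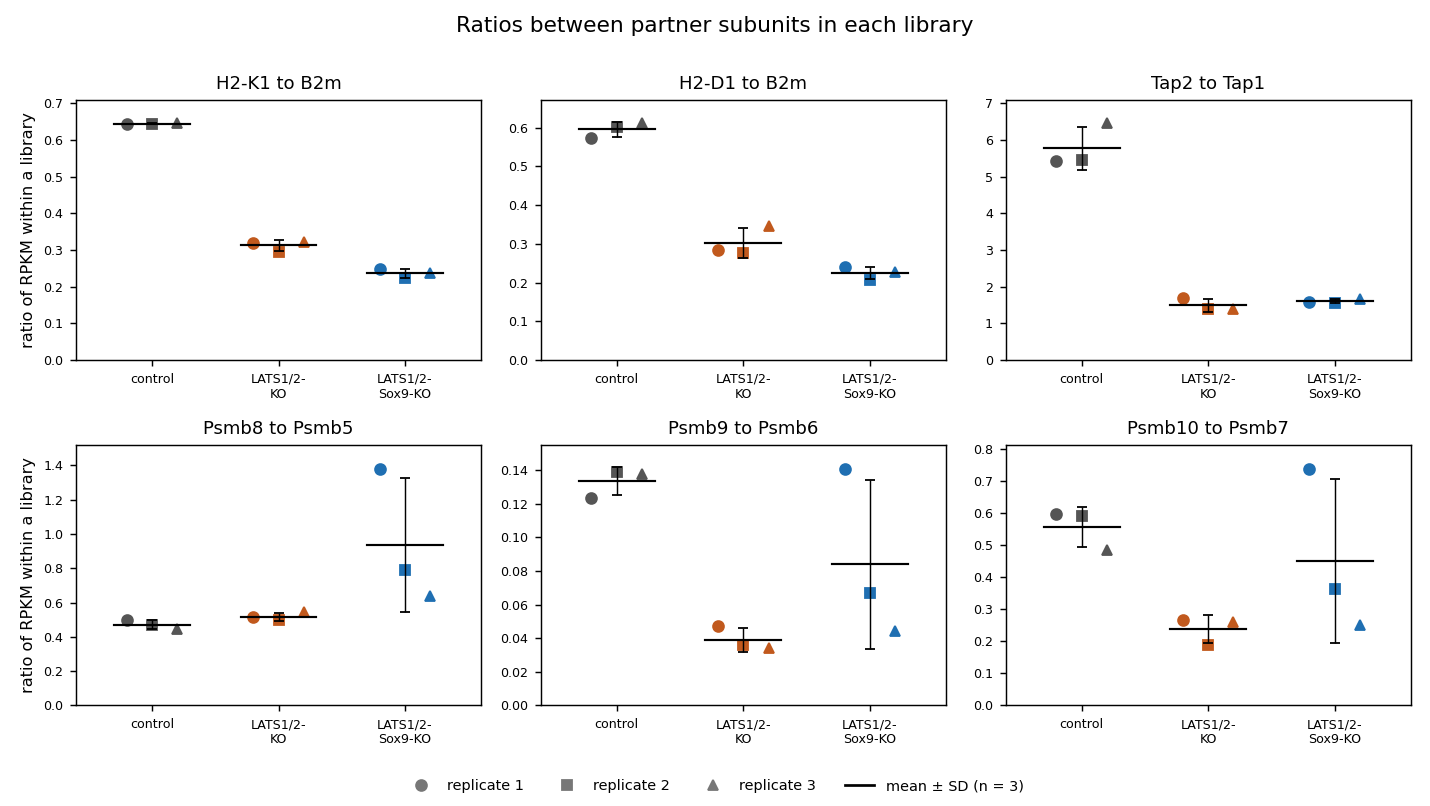
Ratio of the RPKM of partner subunits within each of the 9 libraries (vertical axes from 0), with the replicate number as the symbol and the mean ± SD (n = 3) in black. The ratios of heavy chain to light chain and of Tap2 to Tap1 were lower in both mutant groups than in every control library, while the ratios of immunoproteasome to constitutive subunits spread widely in LATS1/2-Sox9-KO, from 0.640 to 1.38 for Psmb8 to Psmb5.

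GC content moved with some of these values. Among all genes tested, the median log2 fold change between LATS1/2-KO and control was 0.40 in the fifth of genes with the lowest GC content and -0.44 in the fifth with the highest. B2m, at 41.2% GC in its longest transcript, lies in the lowest of these classes, and the other 9 members, from 52.5% to 57.1%, lie in the highest class or the next. With GC content offsets, the log2 difference of H2-K1 to B2m between these groups went from -1.05 to -0.31 and that of H2-D1 to B2m from -0.98 to -0.16, while that of Tap2 to Tap1 went from -1.98 to -1.93. Between LATS1/2-Sox9-KO and control the first went from -1.44 to -0.82 and the second from -1.40 to -0.72. In LATS1/2-KO against control the difference of Psmb10 to Psmb7 went from -1.23 to -0.38, and in LATS1/2-Sox9-KO against control from -0.33 to 0.38. In LATS1/2-KO Tap2 (-1.58) and Nlrc5 (-1.28) were still called lower, and Psmb9 (-0.89) fell but was no longer called. In LATS1/2-Sox9-KO against LATS1/2-KO, where the classes differed by less (-0.06 in the lowest, 0.03 in the highest), 5 members rose with and without the offset. Of all genes 3.52% rose with the offset and 3.13% without it.

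In LATS1/2-KO against control none of Psmb8, Psmb9 and Psmb10 rose, while most other core subunits of the proteasome did. Of these other subunits only Psmb5, Psmb6 and Psmb7 are replaced in the immunoproteasome, with log2 fold changes of -0.01, 0.57 and 1.09. The rest are part of both forms, so their rise does not tell the forms apart. Of the 14 core subunits listed, 13 rose in LATS1/2-KO against control, by edgeR's quasi-likelihood test, where 28.7% of all genes rose. None fell at an unadjusted p below 0.05 or by DESeq2. The list's median log2 fold change was 0.99, where that of all genes was 0.04. The largest were the alpha subunits Psma5 (1.16, SE 0.12), Psma7 (1.15, SE 0.10) and Psma2 (1.06, SE 0.11) and the beta subunits Psmb3 (1.11, SE 0.14) and Psmb7 (1.09, SE 0.10), the last of which is the catalytic subunit that Psmb10 replaces. Psmb5, the catalytic subunit that Psmb8 replaces, was the subunit that did not pass, with a log2 fold change of -0.01. In LATS1/2-Sox9-KO 13 of the 14 rose over control (median 1.12), where 29.3% of all genes rose. The median of the 14 against LATS1/2-KO was 0.13. There 0 passed the edgeR test, where 3.13% of all genes rose and 3.33% fell, and 2 had an unadjusted p below 0.05. These 2 passed DESeq2, where 6.31% of all genes rose. Within a library, Psmb9 relative to Psmb6 was 0.134 ± 0.00851 in control, 0.0391 ± 0.00707 in LATS1/2-KO and 0.0840 ± 0.0504 in LATS1/2-Sox9-KO (RPKM ratio, SD, n = 3). Psmb10 relative to Psmb7 was 0.558 ± 0.0625 in control, 0.239 ± 0.0442 in LATS1/2-KO and 0.451 ± 0.255 in LATS1/2-Sox9-KO. For both pairs every LATS1/2-KO library was below every control library, while Psmb8 relative to Psmb5 overlapped between these groups (0.471 ± 0.0283 and 0.518 ± 0.0237).

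The counts of activators and loading partners that rose in LATS1/2-KO stand beside the 28.7% of all genes that rose there. Of the 4 proteasome activators, 1 rose in LATS1/2-KO, Psme4 (log2 fold change 0.60, SE 0.10, adjusted p = 0.000620, edgeR), which encodes the PA200 cap. Psme2, a subunit of the interferon-inducible PA28 cap, rose in LATS1/2-Sox9-KO over LATS1/2-KO (0.64, SE 0.14, adjusted p = 0.0270) and was named after its values were seen. It missed the threshold without LATS1/2-KO replicate 3 (0.60, adjusted p = 0.0934), LATS1/2-Sox9-KO replicate 1 (0.51, adjusted p = 0.0501) or LATS1/2-Sox9-KO replicate 2 (0.70, adjusted p = 0.0728). Of the 7 loading partners, 3 rose in LATS1/2-KO, led by Erap1 (1.03, SE 0.11, adjusted p = 4.04e-05), the aminopeptidase that trims peptides in the endoplasmic reticulum, with the translocon subunit Sec61b (0.57, SE 0.14) and the disulfide isomerase Pdia3 (0.24, SE 0.09). Calr, the calreticulin that chaperones empty heavy chains, fell by 0.55 (SE 0.11, adjusted p = 0.00153). Pdia3 lost its call under 4 of 6 single omissions (without control replicate 1 or 2, or LATS1/2-KO replicate 1 or 2), with values from 0.21 to 0.23 and adjusted p-values from 0.0897 to 0.124, and under GC content offsets (0.05). The median of these 7 was 0.09, close to that of all genes.

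The heavy chains outside the classical pair fell or did not pass in LATS1/2-KO. Of 17 listed genes 14 passed the filter and 6 fell, against 27.1% of all genes. Fcgrt, the heavy chain of the neonatal Fc receptor, which pairs with B2m and carries IgG instead of peptides, was at 67.0, 63.2 and 60.03 CPM in control, at 4.08, 3.97 and 5.03 CPM in LATS1/2-KO and at 1.47, 1.30 and 2.45 CPM in LATS1/2-Sox9-KO. The groups did not overlap, and Fcgrt fell by 3.86 in LATS1/2-KO (SE 0.24, adjusted p = 2.50e-06, edgeR). H2-T23 (Qa-1), read by NK cell receptors, fell by 1.31 (SE 0.26, adjusted p = 0.00166), and Mr1, which shows vitamin metabolites to MAIT cells, by 1.08 (SE 0.15, adjusted p = 0.000190). Hfe, which regulates iron uptake, fell by 1.38 (SE 0.20) and H2-Q2 by 1.14 (SE 0.22). H2-T22, a ligand of gamma-delta T cells named after its values were seen, had a log2 fold change of -0.04 in LATS1/2-KO and rose in LATS1/2-Sox9-KO over LATS1/2-KO by 1.14 (SE 0.21, adjusted p = 0.0158, and 1.07 with adjusted p = 0.0683 without LATS1/2-KO replicate 3). The H2-Q and H2-T genes are part of the same family of near-identical copies as H2-K1 and H2-D1, with the same uncertainty of placement.

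Among the factors that work beside Nlrc5, Rfx5 and Rfxank, subunits of the RFX complex that binds the X1 box, fell in LATS1/2-KO. Rfx5 was at 55.6, 58.1 and 46.7 CPM in control, at 26.0, 23.99 and 20.9 CPM in LATS1/2-KO and at 28.2, 27.1 and 25.5 CPM in LATS1/2-Sox9-KO. The mutant libraries were all below control and the mutant groups lay close together, unlike Nlrc5. The fall in LATS1/2-KO was 1.18 for Rfx5 (SE 0.13, adjusted p = 4.85e-05, edgeR) and 1.38 for Rfxank (SE 0.19, adjusted p = 0.000198). The NF-Y subunit Nfya fell by 0.68 (SE 0.22, adjusted p = 0.0223), and Rfxap, the third RFX subunit, rose by 0.53 (SE 0.16, adjusted p = 0.0197). Neither of these calls held under every omission. Nfya missed it without control replicate 1 (-0.68, adjusted p = 0.0508), LATS1/2-KO replicate 2 (-0.53, adjusted p = 0.0692) or LATS1/2-KO replicate 3 (-0.56, adjusted p = 0.0833). Rfxap missed it without control replicate 3 (0.42, adjusted p = 0.0787), LATS1/2-KO replicate 2 (0.45, adjusted p = 0.0718) or LATS1/2-KO replicate 3 (0.46, adjusted p = 0.0659). Of the 8 listed partners 0 rose or fell between LATS1/2-Sox9-KO and LATS1/2-KO by edgeR or DESeq2 or had an unadjusted p below 0.05, where 3.13% of all genes rose and 3.33% fell by edgeR, and the list's median there was -0.02.

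The NF-kappaB genes were lower in both mutant groups. Of 6 genes listed, 5 fell in LATS1/2-KO, with Rela at -1.71 (SE 0.18, adjusted p = 4.24e-05, edgeR), Nfkb1 at -1.62 (SE 0.20), Nfkb2 at -1.61 (SE 0.29), Relb at -1.60 (SE 0.21) and Rel at -1.27 (SE 0.21), against a median of -1.61 for the list and 0.04 for all genes, of which 27.1% fell. The same 5 fell in LATS1/2-Sox9-KO against control, where 28.7% of all genes fell. Their inhibitor Nfkbia passed edgeR's adjusted p in neither comparison. In LATS1/2-Sox9-KO against control, though, all 6 were lower at an unadjusted p below 0.05 in edgeR's fit. All 6 also fell there by DESeq2, where 24.6% of all genes fell. Against LATS1/2-KO the list's median in LATS1/2-Sox9-KO was -0.05 and 0 of the 6 passed the edgeR test, had an unadjusted p below 0.05 or passed DESeq2, where 3.13% of all genes rose and 3.33% fell by edgeR.

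Of 14 interferon signalling genes listed, 3 rose and 5 fell in LATS1/2-KO (median -0.25), shares near the 28.7% of all genes that rose and the 27.1% that fell. Socs3, a feedback inhibitor of JAK kinases, fell by 3.59 (SE 0.35, adjusted p = 2.46e-05, edgeR), Irf2 by 1.30 (SE 0.31), Jak2 by 1.30 (SE 0.26) and Tyk2 by 0.97 (SE 0.23), while Usp18, an interferon-induced inhibitor of the type I receptor, rose by 1.98 (SE 0.37, adjusted p = 0.00128). In LATS1/2-Sox9-KO over LATS1/2-KO 2 of the 14 rose, where 3.13% of all genes did, Usp18 (1.90, SE 0.37, adjusted p = 0.0184) and Stat2 (3.03-fold, adjusted p = 0.0248). Usp18 was at 14.3, 16.4 and 26.3 CPM in control, at 80.4, 78.5 and 66.2 CPM in LATS1/2-KO and at 460.0, 228 and 155 CPM in LATS1/2-Sox9-KO. Stat2, which relays type I interferon signals and was named after its values were seen, was at 107, 87.8 and 70.2 CPM in control, at 41.6, 52.0 and 62.5 CPM in LATS1/2-KO and at 254, 126 and 93.4 CPM in LATS1/2-Sox9-KO. Without LATS1/2-KO replicate 3 neither Usp18 (1.82, adjusted p = 0.0768) nor Stat2 (1.75, adjusted p = 0.0643) passed over LATS1/2-KO, and Stat2 did not without LATS1/2-KO replicate 2 (adjusted p = 0.0596) or LATS1/2-Sox9-KO replicate 2 (adjusted p = 0.0550). With GC content offsets the fall of Tyk2 was 0.50 (log2 fold change -0.50, adjusted p = 0.0831). For both Stat2 and Usp18 replicate 1 of LATS1/2-Sox9-KO was the highest library and replicate 3 the lowest of its group, as for the 10 class I genes, and their part in the class I levels was not tested.

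**Figure D4:**
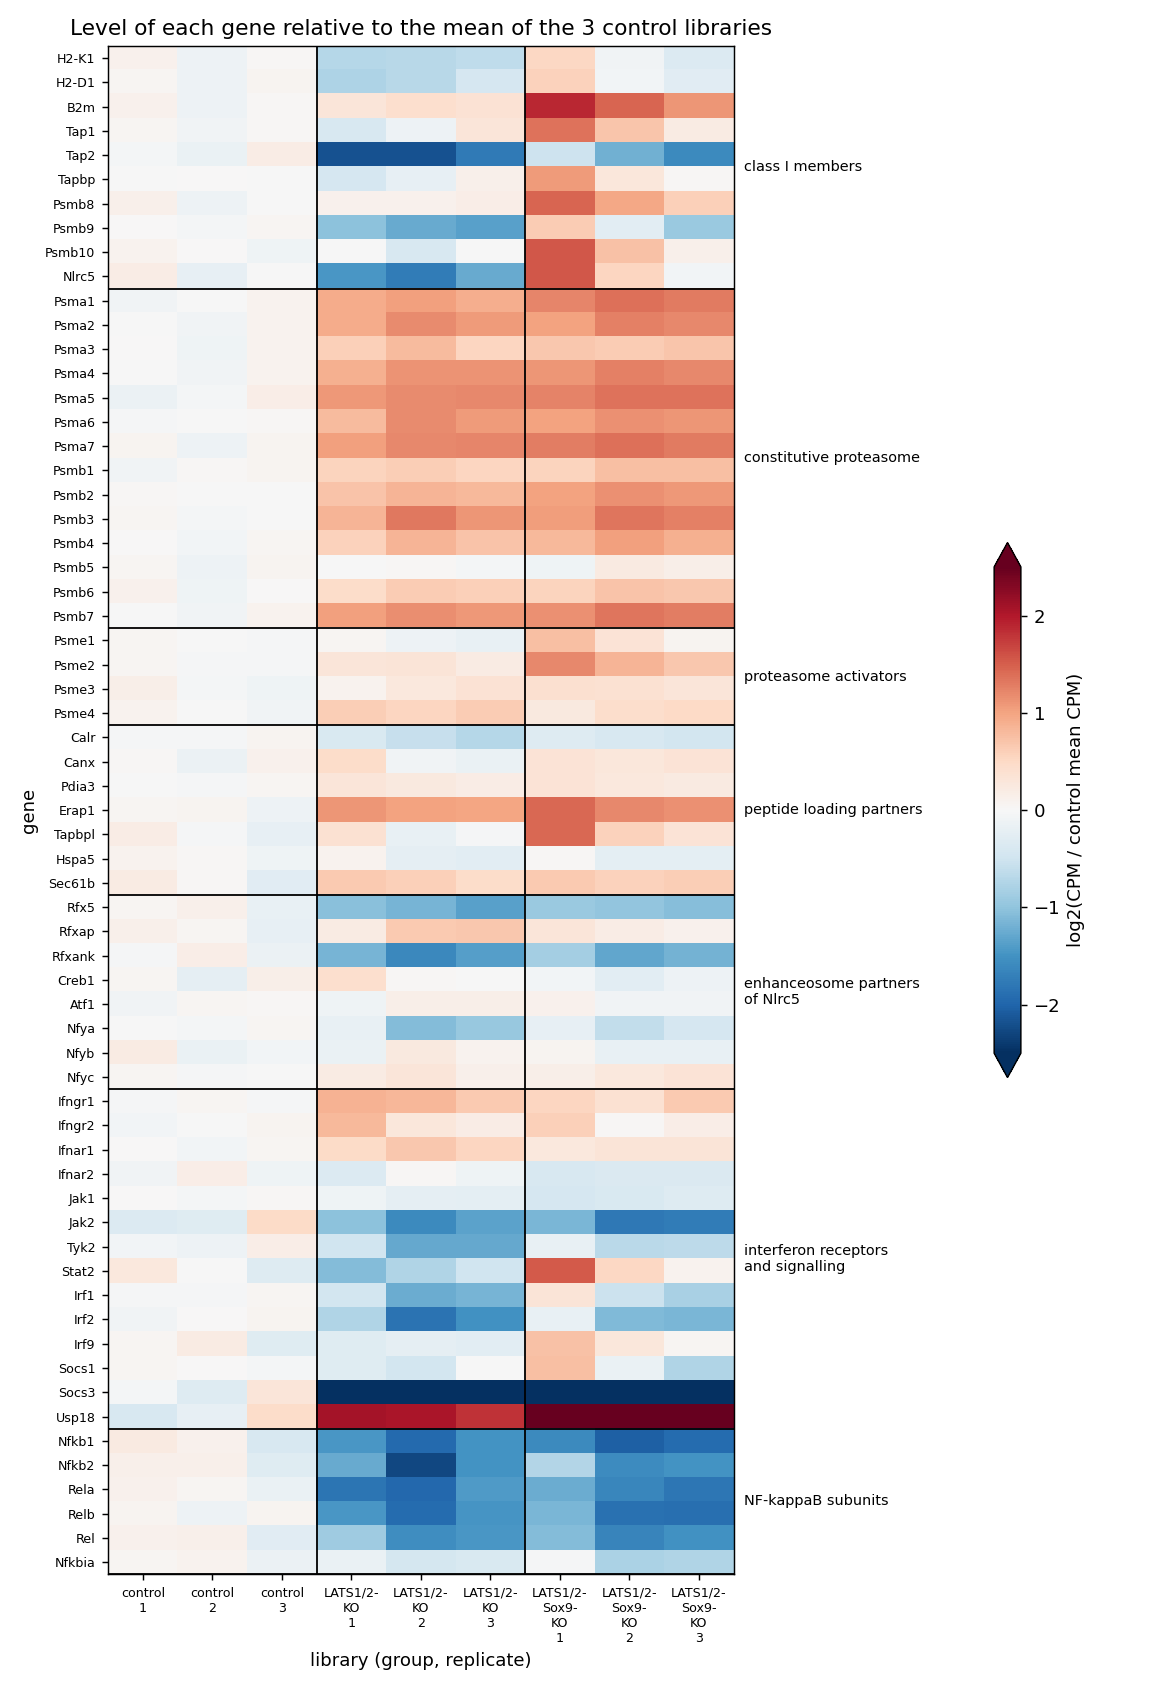
Level of each gene (rows, grouped by list) in each library (columns) as the log2 ratio of its CPM to the mean of the 3 control libraries, with colours cut off at -2.5 and 2.5. The rows marked constitutive proteasome, most of them subunits shared with the immunoproteasome, are higher in all mutant libraries for 13 of 14 genes. In both mutant groups 5 of the 6 NF-kappaB genes are lower. The class I members, Stat2 and Usp18 are highest in LATS1/2-Sox9-KO replicate 1 among the libraries of that group.

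Ligands that T and NK cells read beside class I molecules were also listed. Of 12 genes 8 passed the filter, of which 4 rose and 1 fell in LATS1/2-KO, where 28.7% of all genes rose and 27.1% fell. Ulbp1, a stress ligand of the NK receptor NKG2D, was at 0.474, 0.843 and 0.740 CPM in control and at 15.2, 18.0 and 17.9 CPM in LATS1/2-KO, and rose by 4.63 (SE 0.27, adjusted p = 2.17e-06, edgeR). Cd47, the signal against engulfment by macrophages, rose by 1.22 (SE 0.21, adjusted p = 0.000807), and Pvr, a ligand of DNAM-1 and TIGIT, by 0.81 (SE 0.16, adjusted p = 0.00145). Nectin2, from the same family as Pvr, fell by 1.08 (SE 0.25, adjusted p = 0.00407). Cd274, which encodes the checkpoint ligand PD-L1, was at 7.11, 6.93 and 6.22 CPM in control, at 12.3, 16.8 and 12.4 CPM in LATS1/2-KO and at 123, 61.0 and 39.3 CPM in LATS1/2-Sox9-KO. The 3 groups did not overlap. Cd274 rose in LATS1/2-KO by 1.03 (SE 0.35, adjusted p = 0.0284) and in LATS1/2-Sox9-KO over LATS1/2-KO by 2.43 (SE 0.36, adjusted p = 0.00750). The first of these calls was lost without any 1 of the control libraries (0.97 to 1.07, adjusted p = 0.0611 to 0.0801), without LATS1/2-KO replicate 2 (0.86, adjusted p = 0.0931) and with GC content offsets (0.74, adjusted p = 0.110), and the second held in each of these settings that was run for it.

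Markers of other cells were read beside these results, because the sort as described took live EYFP+ cells with no leukocyte marker named. Of the 16 leukocyte markers 8 passed the filter on low counts. Cd3e and Ms4a1, which define T and B cells, were at 0 counts in every library, and Ptprc (CD45) ranged from 0.203 to 3.09 CPM with its highest value in LATS1/2-KO replicate 1. The summed level of the 16 markers was 15.0, 8.95 and 7.93 CPM in control, 79.9, 51.8 and 35.7 CPM in LATS1/2-KO and 61.6, 65.1 and 87.2 CPM in LATS1/2-Sox9-KO. In both mutant groups most of it was Csf1r, the receptor of a macrophage growth factor, which rose in LATS1/2-KO by 3.87 (SE 0.26, adjusted p = 3.27e-06, edgeR). The myeloid adaptor Tyrobp, with means of 0.259 CPM in control and 1.46 CPM in LATS1/2-KO, was the other of the 8 past the test (2.48, SE 0.78, adjusted p = 0.0203, edgeR), though not without LATS1/2-KO replicate 1 (1.45, adjusted p = 0.0912), control replicate 2 (2.34, adjusted p = 0.0678) or control replicate 3 (2.07, adjusted p = 0.0628). In this comparison 28.7% of all genes rose. Without Csf1r the sums were 11.2, 6.57 and 5.34 CPM in control, 27.8, 7.65 and 3.10 CPM in LATS1/2-KO and 11.2, 7.09 and 15.2 CPM in LATS1/2-Sox9-KO. The part of these markers in the class I levels was not tested. MHC class II genes, which professional antigen-presenting cells express strongly, reached at most 26.8 CPM in any library. This was H2-DMb1, at 26.8, 23.2 and 19.0 CPM in control. H2-Ab1 reached at most 7.87 CPM in any library and Cd74 at most 14.2 CPM, and H2-DMb1 (-2.48, SE 0.26) and H2-DMa (-1.88, SE 0.27), whose products edit class II peptides, were the 2 of 6 tested that fell in LATS1/2-KO, a share near the 27.1% of all genes that fell. Without LATS1/2-KO replicate 1, 5 of the 6 fell, against 27.3% of all genes.

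**Figure D5:**
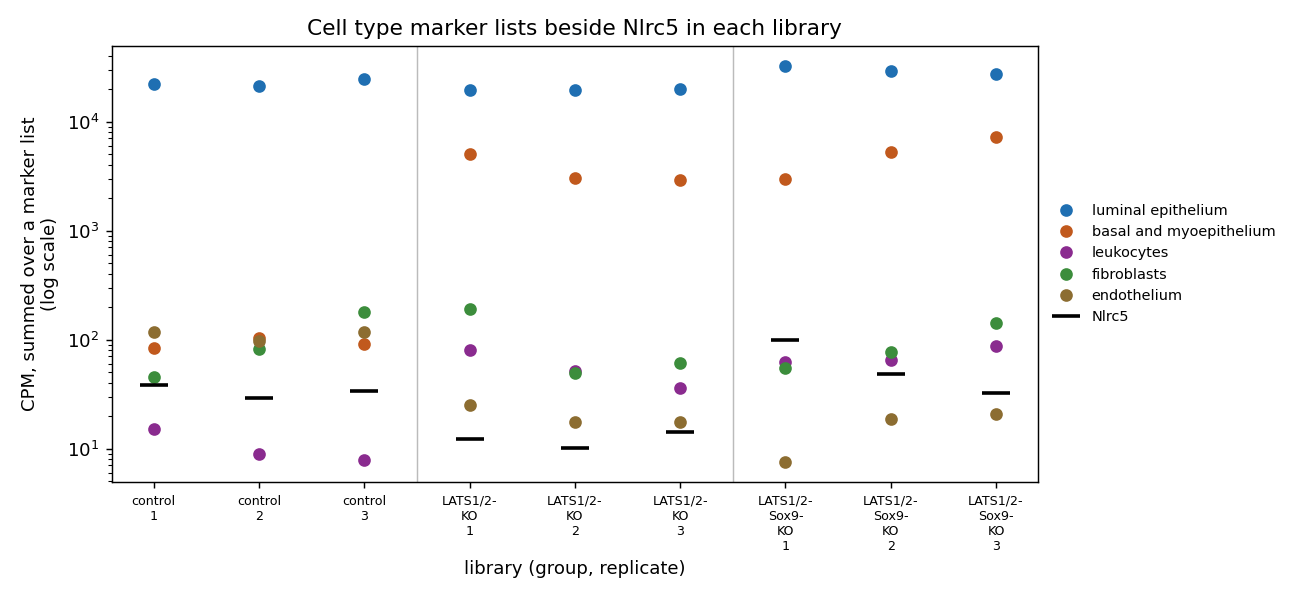
Summed CPM of 5 cell type marker lists (points) and the CPM of Nlrc5 (black bars) in each library, on a log axis. Luminal markers are the most abundant in all 9 libraries, the basal sum is at most 104 CPM in control and at least 2906 CPM in the mutant groups, and the leukocyte sum is at most 87.2 CPM.

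Luminal markers were abundant in every library, as the label of the sorted cells gives. The 12 luminal markers summed to 22167, 21309 and 24457 CPM in control, to 19494, 19261 and 19894 CPM in LATS1/2-KO and to 32474, 29274 and 27155 CPM in LATS1/2-Sox9-KO, with Krt18 the most abundant. Without Krt18 the sums ran from 16711 to 19664 CPM in control, from 11297 to 12354 CPM in LATS1/2-KO and from 15284 to 17806 CPM in LATS1/2-Sox9-KO. Of the 12 markers 2 rose in LATS1/2-KO, the keratins Krt8 (0.58, SE 0.12) and Krt18 (0.71, SE 0.11), and 7 fell, where 28.7% of all genes rose and 27.1% fell. Genes of hormone-sensing luminal cells were lower in LATS1/2-KO, with log2 fold changes of -5.91 for Pgr (SE 0.60), -4.81 for Prlr (SE 0.50) and -3.50 for Esr1 (SE 0.33), as were Elf3 (-2.87, SE 0.30) and Krt19 (-1.03, SE 0.24, and -0.55 with adjusted p = 0.0683 under GC content offsets). The 8 basal and myoepithelial markers summed to 83.9, 104 and 91.8 CPM in control, to 4998, 3007 and 2906 CPM in LATS1/2-KO and to 2943, 5233 and 7189 CPM in LATS1/2-Sox9-KO, and most of it was Krt14 in both mutant groups. In LATS1/2-KO Krt14 (8.04, SE 0.52), Krt17 (3.99, SE 0.29) and Acta2 (3.72, SE 0.26) rose, while Trp63 (-4.82, SE 0.71) and Myh11 (-2.21, SE 0.27) fell. Fibroblast markers summed to 45.7, 81.3 and 178 CPM in control, to 190.1, 48.8 and 60.9 CPM in LATS1/2-KO and to 54.5, 76.4 and 141 CPM in LATS1/2-Sox9-KO, with Dcn the most abundant in the mean of control and Col3a1 in the means of both mutant groups. Col3a1 (3.14, SE 0.78), Col1a2 (2.31, SE 0.62) and Col1a1 (1.90, SE 0.56) rose and Dcn fell (-2.24, SE 0.84) in LATS1/2-KO. Dcn passed in 1 of 6 single omissions, without control replicate 1, and was at -1.43 (adjusted p = 0.180) without control replicate 3. Col1a1 missed the threshold without control replicate 1 (1.80, adjusted p = 0.0522). Endothelial markers summed to 117, 96.0 and 116 CPM in control, to 25.2, 17.4 and 17.7 CPM in LATS1/2-KO and to 7.47, 18.8 and 20.6 CPM in LATS1/2-Sox9-KO, and Vwf (-4.99, SE 0.50) made up most of the control value, while Kdr rose (2.43, SE 0.74), though not without LATS1/2-KO replicate 3 (2.04, adjusted p = 0.0598). The luminal and basal shifts move with the genotype labels as the class I genes do, and in RNA from sorted bulk cells a change in the share of a cell type and a change in RNA per cell cannot be told apart. The part of these shifts in the class I levels was not tested.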

How the data were processed

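The authors aligned reads to mm10 with STAR 2.6.0c, used featureCounts (Subread 1.6.2) to count read pairs that aligned properly and uniquely to Ensembl genes, left out mitochondrial genes, and deposited raw counts for 9 libraries. From these counts, edgeR 4.0.16 (R 4.3.3) with filterByExpr, TMM factors and a quasi-likelihood fit of 3 group means tested 19357 genes, with Benjamini-Hochberg adjustment in each comparison. The members and lists were chosen with earlier results of these data known, and 1 gene of the interferon list is not reported here. Genes named from a list are those, at most 5, with the largest change in LATS1/2-KO against control among genes past an adjusted p of 0.05 whose mean normalized count reached 100 in the higher group. Psmb5, Krt8, Krt18, Psme2, H2-T22, Stat2, Nfkbia, Tyrobp, Ptprc, Cd3e, Ms4a1, H2-Ab1 and Cd74 were named after their values were seen. Psmb6 was named as the subunit that Psmb9 replaces. RPKM used merged exons of GENCODE M21, and promoters came from RefSeq (GRCm38.p6). On simulated counts for LATS1/2-KO against control with 200 of 19357 genes changed, edgeR recovered 49 of 100 genes changed by a fold of 2 and 89 of 100 by a fold of 4. DESeq2 recovered 74 and 99 on the same counts, but called 49 unchanged genes where edgeR called 9. In the data 28.7% of genes rose and 27.1% fell in this comparison, far more than were changed in the simulation. These recoveries therefore do not give those of the real comparison. Counts per library of 44167762 or more leave counting error small, and n = 3 limits precision. Alternatives were DESeq2 1.42.0, other scalings and filters, 2-group fits, a replicate block, glmTreat, each library left out and, added after the data were seen, GC content offsets.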

Additional observations from a re-analysis of the deposited data

How the results depend on the processing

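Under glmTreat against a fold change of 2, 1 member was called in LATS1/2-KO against control (Tap2), 0 in LATS1/2-Sox9-KO against LATS1/2-KO and 1 in LATS1/2-Sox9-KO against control (B2m), where edgeR's quasi-likelihood test called 3, 2 and 3. Under glmTreat 10.6% of all genes were called lower in the first comparison, 0.093% higher in the second and 11.6% higher in the third. In LATS1/2-Sox9-KO against LATS1/2-KO, DESeq2 and the fit with no filter each called 5 members higher and passed 9, against 2 and 5. Of all genes 6.31% rose by DESeq2 and 2.64% with no filter, against 3.13%. The shares called higher were 2.63% and 1.37%, against 1.55%. The fit of only these groups passed 3, where 2.65% of all genes rose. The replicate block also passed 3 (B2m, Psmb8 and Nlrc5), where 2.44% of all genes rose, and changed no other count of members. Deviations of same-numbered libraries correlated between -0.19 and 0.49, and those of different-numbered libraries between -0.35 and 0.22. The highest value was that of replicate 2 of both mutant groups. These correlations do not decide whether the replicate numbers pair the libraries. GC content offsets passed 3 members in LATS1/2-KO against control, all lower, against 5, where 26.6% of all genes fell. In LATS1/2-Sox9-KO against control they passed 8, 7 higher and 1 lower, against 4 higher and 1 lower, where 29.4% of all genes rose and 28.4% fell. Leaving out each library in turn, 3 members were called in each omission in LATS1/2-KO against control, 1 to 7 in LATS1/2-Sox9-KO against LATS1/2-KO and 2 to 5 in LATS1/2-Sox9-KO against control. Members past the adjusted p numbered 4 to 5, 2 to 9 and 3 to 7 in the same order. In these omissions 23.1% to 27.3% of all genes fell in the first comparison, 0.77% to 5.01% rose in the second, and in the third 25% to 27.3% rose and 23.4% to 26.0% fell. Shares called were 15.7% to 18.6% lower, 0.603% to 2.46% higher, and 16.2% to 17.5% higher and 17.0% to 18.4% lower. The cause of these changes was not tested. Direction turned only for values that did not pass the test. In LATS1/2-KO against control, GC content offsets gave log2 fold changes of -0.044 for B2m, 0.35 for Tap1, 0.31 for Tapbp and 0.30 for Psmb10, and library totals alone 0.013 for Tap1. Over single omissions Tap1 ranged from -0.25 to 0.11. In LATS1/2-Sox9-KO against control, single omissions gave -0.18 to 0.26 for H2-K1, -0.15 to 0.30 for H2-D1 and -0.54 to 0.27 for Psmb9, with the lowest value without LATS1/2-Sox9-KO replicate 1 each time. Psmb9 was at 0.0048 with no filter and at 0.22 with GC content offsets. Of 480 values of single members under the alternatives, 416 kept direction and side of the threshold. Library totals alone moved the median of all genes in LATS1/2-Sox9-KO against LATS1/2-KO from -0.02 to -0.12. The depth does not limit the 10 members, whose lowest count was 639.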
